A study of Mus musculus with 4 samples.

Results

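The proteins of the mitochondrial ribosome are encoded in the nucleus, and the sites of N6-methyladenosine (m6A) on their messenger RNAs were read here from maps of mouse macrophages. Members were the genes whose symbol begins with Mrpl (43 genes, named for the large subunit) or Mrps (23 genes, named for the small subunit) followed by a digit. These 66 genes were among 8800 genes with a called site in either mouse, and 64 of them were among the 7827 called in both. The cells were bone marrow-derived macrophages (BMDM) of 2 wild-type mice, cultured with lipopolysaccharide (LPS), a bacterial activator of macrophages, for 3 h. All libraries came from LPS-treated cells, so no effect of LPS could be measured, and the labels used here give no strain, sex or age. Both table names also contain NTC, a term left unexplained by the labels. In m6A-eCLIP, RNA fragments crosslinked to an antibody against m6A are sequenced, and a site is placed at the nucleotide that the read starts point to. Polyadenylated RNA of each mouse was made into 1 immunoprecipitated (IP) and 1 input library, and the authors' fold of a site divides its read starts in the IP by those in the input.

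Mitochondrial ribosomes translate the few messenger RNAs made from mitochondrial DNA, all of which code for subunits of the respiratory chain and of ATP synthase. Their proteins are made in the cytosol and imported, as are most subunits of the respiratory chain itself. In most messenger RNAs m6A lies in the 3' UTR and the coding sequence, often near the stop codon, in a short sequence context called DRACH (A, G or T, then A or G, then the methylated A, then C, then A, C or T). Antibodies against m6A also bind m6Am, a related mark on an adenosine next to the cap at the very start of a transcript. Which of these marks a site carries was not tested.

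The mitochondrial ribosomal protein genes carried sites along the whole transcript, in contrast to the genes of the cytosolic ribosome and of the respiratory chain, whose sites in these cells lay mostly in 5' UTRs. A site was called enriched at a fold of at least 8, and shared enriched where the same nucleotide and strand reached that fold in both mice. Of 151 shared enriched sites of the members, 38 lay in 5' UTRs (25.2%, exact 95% interval 18.5% to 32.9%), 49 in coding sequence (32.5%) and 62 in 3' UTRs (41.1%). Over all genes these shares were 13.9%, 43.4% and 38.1% of 28479 sites. Of the 32 sites of cytosolic ribosomal protein genes 23 lay in 5' UTRs (71.9%, 53.3% to 86.3%), and of the 93 sites of respiratory chain and ATP synthase genes 79 did (84.9%, 76.0% to 91.5%). The interval of the members overlapped neither of these. Over all called sites, enriched or not, the 5' UTR share of the members was 36.7% in mouse 1 and 34.4% in mouse 2, against 56.8% and 55.2% in cytosolic ribosomal protein genes, 81.5% and 81.9% in respiratory chain and ATP synthase genes and 19.6% and 19.3% over all genes. The intervals cover counting error only, sites of 1 gene are not independent, and the difference itself was not tested.

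**Figure D1:**
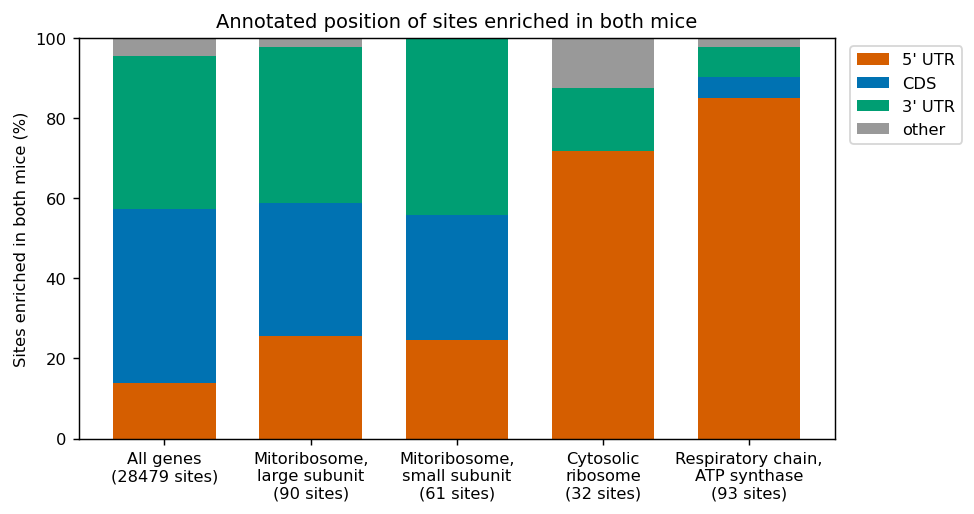
The bars divide the sites enriched in both mice by annotated position, in percent of the sites of each group of genes (number of sites under each bar). The 5' UTR part is 25.6% and 24.6% in genes named for the large and small subunit of the mitochondrial ribosome and 13.9% over all genes. It is 71.9% in cytosolic ribosomal protein genes and 84.9% in respiratory chain and ATP synthase genes.

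Both subunits, with genes taken by symbol, showed this spread. By their proteins Mrps30, Mrps18a and Mrps36 do not belong to the small subunit, as given below. The large subunit had 23 of 90 shared enriched sites in 5' UTRs, 30 in coding sequence and 35 in 3' UTRs. The small subunit had 15, 19 and 27 of 61. Counted by gene, 33 members carried a shared enriched site in the 3' UTR, 28 in the 5' UTR and 24 in coding sequence. Sites in the 5' UTR alone were found in 12 members (21.1% of the 57 with a shared enriched site), sites in coding sequence or 3' UTR without any in the 5' UTR in 29 (50.9%), and both kinds in 16 (28.1%). Over all genes the 3 classes took 15.7%, 57.9% and 22.7%. In cytosolic ribosomal protein genes they held 15, 2 and 1 of 19 genes, and in respiratory chain and ATP synthase genes 42, 3 and 4 of 50. At a fold limit of 16 in place of 8, 7 members rather than 12 had shared sites in the 5' UTR alone.

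The 5' UTR sites lay close to the start of the gene. Of the 38 shared enriched ones, 15 (39.5%, 24.0% to 56.6%) were within 10 bases of the RefSeq gene start and 33 (86.8%) within 50 bases, with a median position 10 bases downstream. Over all genes 12.4% of 3942 such sites were within 10 bases and 39.2% within 50, with a median position 73 bases downstream. In respiratory chain and ATP synthase genes 19.0% of the sites were within 10 bases, and in cytosolic ribosomal protein genes 21.7%. In 5 cases the site was the first base of the annotated gene, in Mrpl10, Mrpl53, Mrpl54, Mrps15 and Mrps18a. Another 6 sites lay upstream of the start, the farthest 26 bases upstream, in Mrpl53. The comparison depended on the start used. Against the nearest transcript start in the RefSeq promoter table, 45.7% of 35 member sites were within 10 bases (median 6 bases downstream), 20.9% of 3192 over all genes (median 35), 35.3% of 17 in cytosolic ribosomal protein genes (median 14) and 19.4% of 67 in respiratory chain and ATP synthase genes (median 24). Within 50 bases these shares were 97.1%, 55.8%, 82.4% and 73.1%. The intervals were wide, and gene starts in an annotation can differ from the starts used in a macrophage, which was not measured here. How far short 5' UTRs set these distances was not tested.

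**Figure D2:**
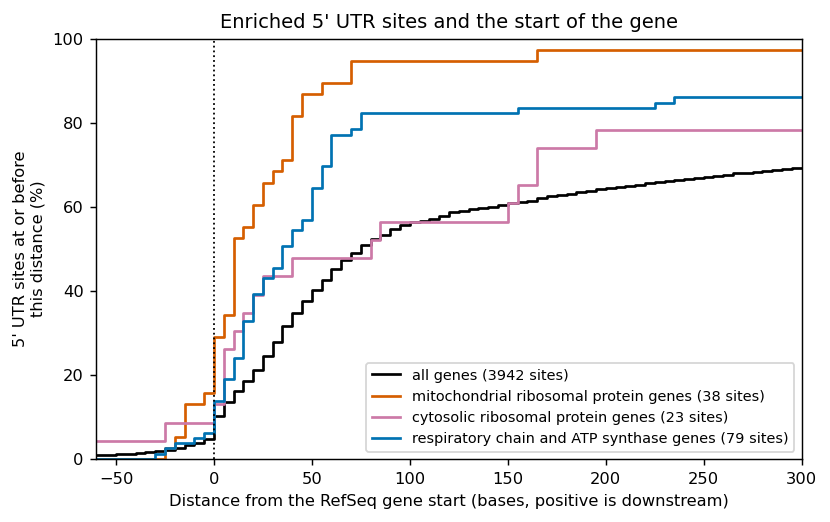
The curves give, for each distance from the RefSeq gene start (bases, positive downstream), the percent of enriched 5' UTR sites at or before it. The curve of the mitochondrial ribosomal protein genes (38 sites) rises steepest around 0 and holds 86.8% of its sites within 50 bases on either side of the start, against 39.2% over all genes.

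The sequences around these sites had an adenosine at every called base, enriched or not, and little of the DRACH context. Windows of 21 bases, 10 on each side of the site, were read from the RefSeq sequences around gene starts (GRCm38.p6), which hold 34 of the 38 shared enriched 5' UTR sites of the members. They are written 5' to 3' on the strand of the gene, with the called base in capitals. Shown first are sites on the first base of the gene, then sites directly followed by the letters CTTCCGG, then the 5' UTR sites of highest fold in mouse 2 (Mrps21) and in mouse 1 (Mrps18c), and last the only site in a DRACH context. The site on the first base of Mrpl53, with T before the called A and A after it, is not among those shown.
Mrps18a, first base of the gene (chr17:46111004, + strand): acacgcggtcAggtgcgttcc
Mrps15, first base (chr4:126046928, + strand): gaaccgatccAttcgctcagc
Mrpl10, first base (chr11:97041582, + strand): cgcagcgcgcAtgggaacttc
Mrpl52, 1 base downstream (chr14:54426910, + strand): ggccacgcccActtccggttc
Mrps26, 15 bases upstream (chr2:130563742, + strand): ctccgcggccActtccgggcc
Mrps21, 10 bases downstream (chr3:95871504, - strand): gggactccgtAgcttccgctt
Mrps18c, 18 bases upstream (chr5:100798741, + strand): gcttagggaaAtagaaaggaa
Mrpl10, 6 bases downstream (chr11:97041588, + strand): gcgcatgggaActtcctgtag

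All 34 windows had A at the called base, as had all 1839 shared enriched 5' UTR sites of all genes with such a sequence. So had all 21 member sites, and all 1467 sites of all genes, that were called in both mice without being shared enriched. Whether the site caller lists bases other than A is not given, so the share of A is no result about the members. The base before the called A was C in 22 of 34 (64.7%, 46.5% to 80.3%), as in the windows of Mrps18a, Mrps15, Mrpl52 and Mrps26. That share was 72.4% over all genes, and 30.6% of all A within 45 bases after the starts of genes called in both mice. At the member sites that were not shared enriched it was 7 of 21 (33.3%, 14.6% to 57.0%), against 54.9% of the 1467 such sites of all genes. Several of these 21 are neighbouring bases of Mrps18c, so they are not independent. The base after the A was G in 16 (47.1%), T in 11 (32.4%), C in 6 (17.6%) and A in 1. Over all genes G, T and C took similar shares of 50.1%, 28.1% and 16.1%. A DRACH context was present at 1 of 34 sites (2.94%), the second site of Mrpl10, against 2.29% of the sites of all genes and 7.25% of all A near the starts. Both sites of Mrpl10 were enriched in each mouse, with folds of 13.5 and 16.9 at the first base and of 9.03 and 12.5 at the DRACH site.

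CTTCCGG is a sequence that some ETS family transcription factors, such as GABPA, bind in DNA. Searched on the strand of the gene alone, these 7 letters stood within 15 bases of 5 of the 34 sites (14.7%, 4.95% to 31.1%). They follow the called A directly in the windows of Mrpl52 and Mrps26, and were also found beside 1 site of Mrpl53 and both sites of Mrps21. The sites of Mrps21 share 1 copy of the letters, so the 5 sites are not independent. The share over all genes was 3.43%. In respiratory chain and ATP synthase genes 5 of 46 sites had it (10.9%, 3.62% to 23.6%), and in cytosolic ribosomal protein genes none of 14, which allows up to 23.2%. From 250 bases before to 50 after the start, CTTCCGG or its reverse complement CCGGAAG was found in 18 of 56 members with a sequence and a called site in both mice (32.1%, 20.3% to 45.96%). The share was 22.3% over genes called in both mice, 9.93% over all 27025 genes with a sequence, 9 of 20 in cytosolic ribosomal protein genes and 28.8% in respiratory chain and ATP synthase genes. The interval of the members holds all of these except the share over all genes with a sequence. TATAAA, the TATA box, was found from 40 to 20 bases before the start in none of 56 members, which allows a share of up to 6.38%, against 1.33% of genes called in both mice. A match is a description of letters and not a measured binding site.

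Across the members, 57 of the 64 called in both mice (89.1%) carried a shared enriched site, against 86.9% of all genes called in both. Of the called sites, 192 of 245 in mouse 1 (78.4%) and 188 of 250 in mouse 2 (75.2%) were enriched, where the background was 81.7% and 79.1%. Of the 208 sites called in both mice, 151 (72.6%) were shared enriched, against 76.9% of all sites called in both. At a fold of at least 16 in both mice, 44 of 64 members (68.8%) remained, against 60.2% of all genes. At the limit of 8 the members' shares were near the background. The large subunit had 36 of 42 genes with a shared enriched site and the small subunit 21 of 22.

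Position separated enriched from other sites within the members as it did over all genes. Of the sites called in both mice, 53.5% of 71 in 5' UTRs were shared enriched, 80.3% of 61 in coding sequence and 86.1% of 72 in 3' UTRs. Over all genes these shares were 56.2%, 83.5% and 84.0%. The median fold of the shared enriched sites of the members was 21.1 in mouse 1 and 22.8 in mouse 2, against 21.6 and 22.1 over all genes. It was 27.1 and 24.1 in coding sequence, 21.1 and 21.2 in 3' UTRs and 17.5 and 22.8 in 5' UTRs. Coding sequence was thus highest in both mice, and the order of the UTRs turned. The large subunit had 37.1 and 27.2 in coding sequence. In the small subunit coding sequence (25.1 and 22.1) was below the 5' UTR in mouse 2 (26.6). Over all genes 3' UTRs were highest in both mice (23.1 and 24.1), before coding sequence (22.3 and 23.1) and 5' UTRs (17.0 and 17.3).

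**Figure D3:**
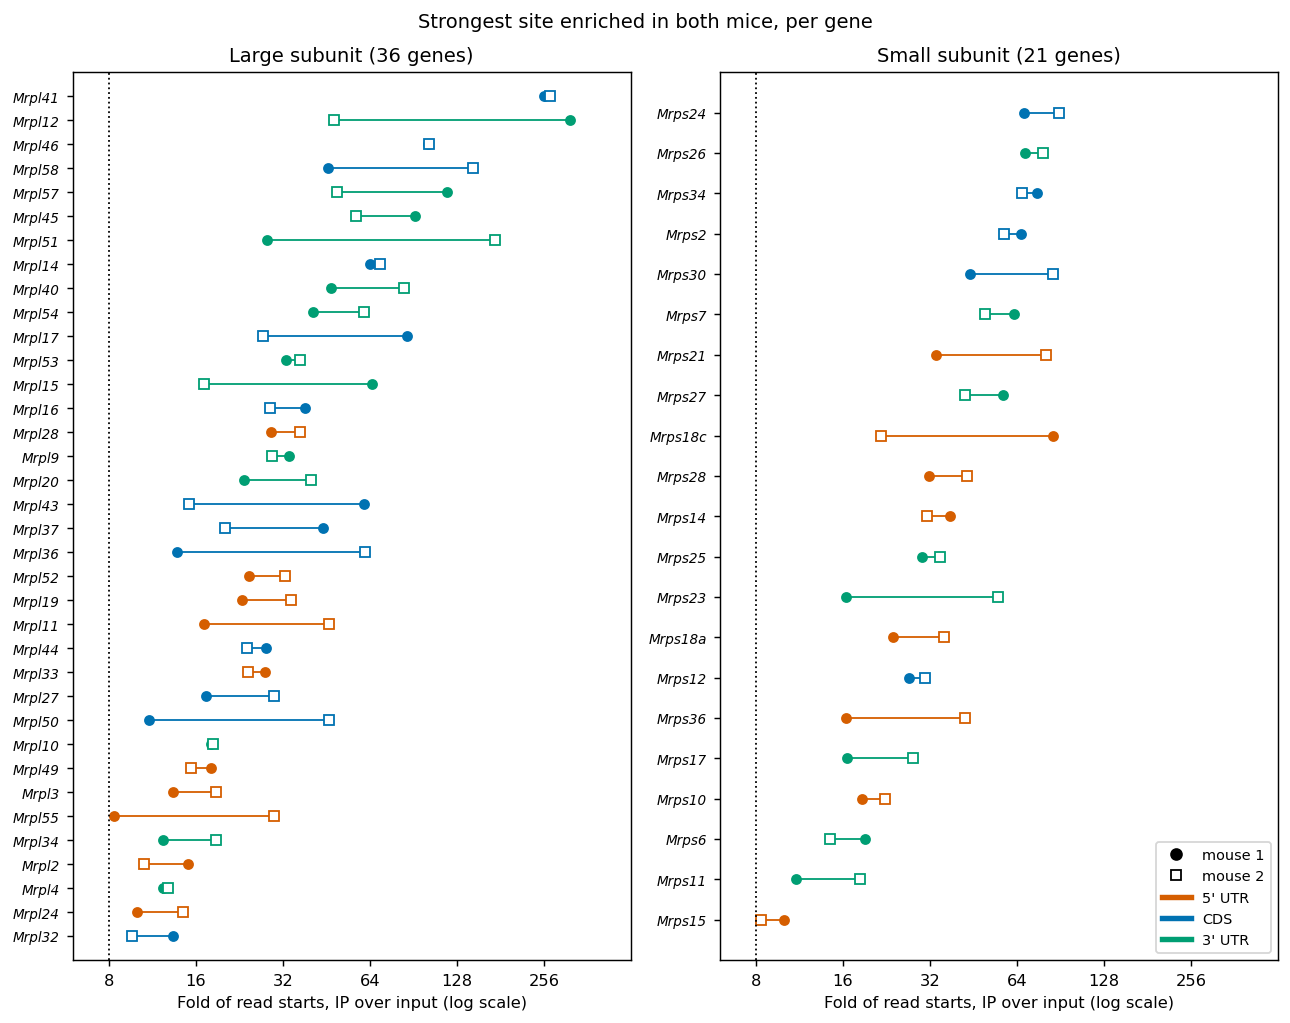
Each line joins the folds in mouse 1 (filled circle) and mouse 2 (open square) of a gene's strongest site enriched in both mice, on a log scale, with the colour giving its annotated position and the dotted line the limit of 8. Mrpl41 leads the large subunit at 257 and 268, Mrps24 leads the small subunit at 67.9 and 89.2, and Mrps15 is lowest at 10.03 and 8.35.

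The strongest site of a gene lay in the 5' UTR in 18 of the 57 members, in coding sequence in 18 and in the 3' UTR in 21 (31.6%, 31.6% and 36.8%). Over all genes these shares were 20.3%, 35.1% and 39.3%, and the 5' UTR share was 73.7% in cytosolic ribosomal protein genes and 86% in respiratory chain and ATP synthase genes. Ordered by the mean log2 fold of both mice, none of the 10 highest members had its strongest site in the 5' UTR, and 5 had it in coding sequence. Ordered by 1 mouse alone, the first 10 held 1 gene with a 5' UTR site, Mrps18c in mouse 1 (85.2) and Mrps21 in mouse 2 (80.9). The highest by the mean was in the coding sequence of Mrpl41, a protein of the large subunit without a bacterial counterpart, at chr2:24974357 on the minus strand, where mouse 1 had a fold of 257 and mouse 2 one of 268. Mrpl41 carried 3 more enriched sites in its coding sequence within a stretch of 132 bases, and its lowest had folds of 25.1 and 38.2. No site was enriched in its UTRs in both mice.

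Mrpl12 encodes the protein of the flexible stalk that contacts translation factors, and it came second by the mean log2 fold, with a 3' UTR site at chr11:120488614. The fold there was 315 in mouse 1, the highest of any member in that mouse, and 48.0 in mouse 2, below the leading sites of Mrpl51, Mrpl58, Mrpl46, Mrps24 and others. This was the largest difference between the mice among the shared enriched sites of the members (2.71 on the log2 scale, mouse 1 minus mouse 2). The other 3 sites in that 3' UTR lay within the same 165 bases and had folds of 55.7 to 117 in mouse 1 and 47.5 to 68.0 in mouse 2. Its 5' UTR site, 22 bases after the start, had folds of 29.1 and 40.4. The mice were farthest apart at the leading site, and the other sites of Mrpl12 differed by less than 2-fold. Mrpl10, whose protein holds the stalk at its base, was lower throughout, with 5 shared enriched sites of which the strongest, in the 3' UTR at chr11:97048514, had folds of 18.1 and 18.3.

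Mrpl46, another protein specific to mitochondrial ribosomes, had nearly equal folds in the mice at its leading site in coding sequence (chr7:78775472, 102 and 103). A neighbour 10 bases away had folds of 40.8 and 42.7. Of its 5 shared enriched sites 4 lay in coding sequence within 119 bases and 1 in the 3' UTR (24.1 and 15.7). The gene starts 42 bases from Mrps11, which is read in the opposite direction, and the sites of both were assigned by strand. Mrps11 had a single shared enriched site, in its 3' UTR (11.0 and 18.3).

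Mrpl58, known also as Ict1, is a peptidyl-tRNA hydrolase that frees stalled ribosomes and is built into the large subunit. Its coding sequence site at chr11:115410718 reached 45.8 in mouse 1 and 145 in mouse 2. Mrpl57 had 1 strong site in the 3' UTR (chr14:57826849, 118 and 49.2) and 2 weaker ones in the 5' UTR. Mrpl45, which ties the ribosome to the inner membrane, had 2 sites in the 3' UTR that lay 8 bases apart, with folds of 91.8 and 57.1 at chr11:97328762 and of 103 and 25.8 at its neighbour. The leading site of Mrpl58 was higher in mouse 2, and those of Mrpl57 and Mrpl45 in mouse 1. Mrpl51 had the second largest difference, at a 3' UTR site with folds of 28.3 in mouse 1 and 173 in mouse 2 (chr6:125193456, log2 difference -2.62).

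In the small subunit the leading member was Mrps24, the counterpart of bacterial protein S3, with a coding sequence site at chr11:5704532 (67.9 and 89.2). Mrps26, specific to mitochondria, followed with a 3' UTR site at chr2:130565066 (68.2 and 79.0), and its other 2 sites in the 3' UTR had folds of 71.2 and 47.2 and of 54.8 and 73.2. Mrps34, which is needed for the small subunit to be stable, had its leading site in coding sequence at chr17:24896028 (75.2 and 66.4). In these genes the mice differed by less than 1.5 times at the leading site. Mrps2, the counterpart of bacterial S2, carried 5 sites, all in coding sequence within 203 bases. The strongest of them had folds of 66.2 and 57.8 (chr2:28469770) and the lowest in mouse 1 had 10.03 and 20.2. Mrps27, an RNA-binding protein of the pentatricopeptide repeat kind, had 3 sites, all in its 3' UTR, led by folds of 57.2 and 42.4 (chr13:99415133).

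The number of shared enriched sites per member ran from 0 to 6, with a median of 2 among the 57 members that had any, against 3 over all genes. Mrps17, the counterpart of bacterial S17, had the most, with 2 sites each in the 5' UTR, coding sequence and 3' UTR and folds between 10.8 and 26.1 in mouse 1 and between 14.4 and 33.7 in mouse 2. Mrpl10, Mrpl12, Mrpl46, Mrpl53, Mrps12, Mrps2 and Mrps26 had 5 each. Among these 8 genes Mrpl12, Mrpl46 and Mrps26 were also among the 10 highest by mean log2 fold, while Mrps17 and Mrpl10 stayed below 34 in both mice at every shared enriched site. Mrps30 reached folds of 44.1 and 85.7 with a single one. Mrps12, the counterpart of the bacterial decoding-centre protein S12, had 4 sites in coding sequence within 71 bases, at folds of 10.1 to 30.8 over both mice. A single site was found in 12 members.

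**Figure D4:**
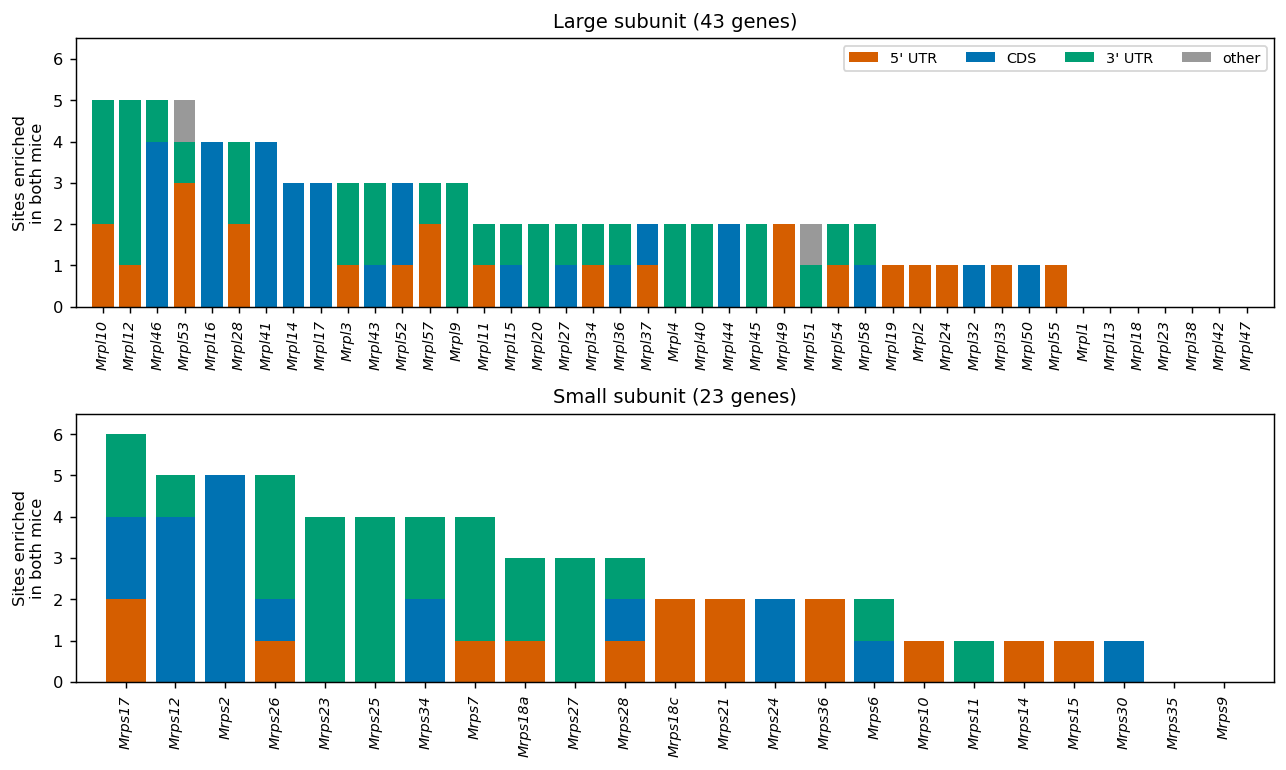
Bars give the number of sites enriched in both mice for each of the 66 genes, divided by annotated position. Mrps17 has the most with 6, Mrps2, Mrpl16 and Mrpl41 carry theirs in coding sequence alone, and the 9 genes at the right of the panels carry none.

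Most 3' UTR sites of the members lay near the end of the gene. Of the 62 sites in 3' UTRs 40 (64.5%) lay within 500 bases of the annotated gene end, against 25.8% over all genes, and their median distance was 312.5 bases against 1154. All 7 such sites of respiratory chain and ATP synthase genes lay within 500 bases (median 219), and 2 of 5 of cytosolic ribosomal protein genes did. The farthest were those of Mrps25, with 4 sites within 96 bases of one another that lay 5389 to 5484 bases before the gene end. Other far sites included those of Mrpl15 (3265 bases), Mrpl57 (2238), Mrpl11 (2140) and Mrpl27 (2069). Coding sequence sites of Mrpl14, Mrpl16 and Mrpl17 fell within 127, 122 and 71 bases, and these 3 genes had sites in no other position. Of all 151 shared enriched sites, 5' UTR sites included, 24 (15.9%) had another within 10 bases in the same gene and 76 (50.3%) within 50, near the 12.1% and 46.8% over all genes. In cytosolic ribosomal protein genes 37.5% and 46.9% did, and in respiratory chain and ATP synthase genes 31.2% and 64.5%. How far short transcripts set these distances was not tested.

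The 12 members with sites in the 5' UTR alone were Mrpl2, Mrpl19, Mrpl24, Mrpl33, Mrpl49, Mrpl55, Mrps10, Mrps14, Mrps15, Mrps18c, Mrps21 and Mrps36. The highest folds among them were those of Mrps18c, 85.2 in mouse 1 and 21.7 in mouse 2, and of Mrps21, 33.8 and 80.9, the first leading in mouse 1 and the second in mouse 2. Mrps18c also had 5 further called bases within 10 bases on either side whose folds were between 2.19 and 5.01 in mouse 1 and between 2.74 and 6.57 in mouse 2, all below the limit. Mrps14 was alike in the mice at its only called site (37.5 and 31.3). Mrps36, whose protein is now assigned to the 2-oxoglutarate dehydrogenase complex and not to the ribosome, is kept here because the members were taken by symbol. It had sites of 16.4 and 42.4 and of 13.0 and 31.8, 4 bases apart. Mrps30 and Mrps18a are likewise named for the small subunit, although their proteins were located in the large subunit of the mammalian ribosome.

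Both mice called 7 members without a shared enriched site. Mrpl1 had a 5' UTR site with folds of 2.01 and 8.02, and another, 3 bases upstream, with a fold of 15.04 that was called in mouse 1 only. Mrpl13 had 2 sites in the 5' UTR, of which 1 was enriched in mouse 1 (14.5 and 3.45) and the other in mouse 2 (7.27 and 10.6). Mrpl42 had 3 sites in the 5' UTR, the highest at 11.0 and 5.01. Mrpl47 (5.35 and 9.99) and Mrps9 (3.84 and 14.0) passed the limit in mouse 2 only, each at a 5' UTR site. Mrpl38 passed it at different sites, in the 3' UTR in mouse 1 (9.03 and 3.53) and in an intron in mouse 2 (4.51 and 9.63), and Mrpl23 had 1 intronic site below it in both (7.02 and 6.74). In 5 of these 7 genes the sites called in both mice lay in the 5' UTR. Mrpl18 was called in mouse 1 alone, at a fold of 6.02 in the 3' UTR, and Mrps35 in mouse 2 alone, at 15.4 in coding sequence.

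The remaining 12 of the 78 protein-coding genes of this family in RefSeq (Mrpl21, Mrpl22, Mrpl30, Mrpl35, Mrpl39, Mrpl48, Mrps5, Mrps16, Mrps18b, Mrps22, Mrps31 and Mrps33) had no called site under these symbols in the rows used here. Only sites with a score above 10 are listed, so this says nothing of their expression or of weaker sites.

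**Figure D5:**
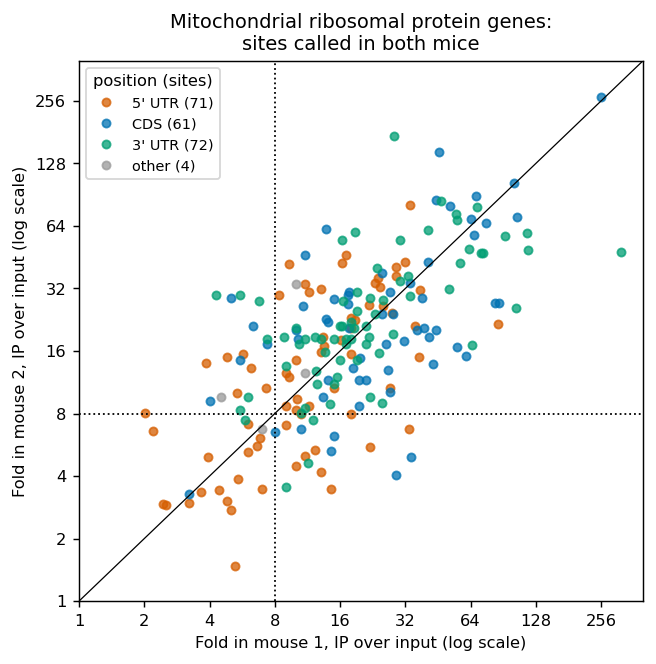
Each point is 1 of the 208 sites of mitochondrial ribosomal protein genes called in both mice, with its fold in mouse 1 and mouse 2 on log scales, coloured by position. Points follow the diagonal with wide scatter, and 151 of them lie above and to the right of the dotted limits of 8.

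The folds of the mice were related, with wide scatter. Across the 151 shared enriched sites Pearson's r of the log2 folds was 0.57 and Spearman's rho 0.53, given as a description, since sites share libraries and are not replicates. Over the 28479 sites of all genes the values were 0.66 and 0.63. Across the 208 member sites called in both mice, with no limit on the fold, they were 0.66 and 0.63, against 0.74 and 0.70 over all genes. Among the 151 sites the fold was higher in mouse 1 at 64 and in mouse 2 at 87, against 13635 and 14844 over all genes. The median absolute log2 difference was 0.54 (0.49 over all genes), and 38 sites (25.2%) differed by over 2-fold, against 22.5%. After Mrpl12 and Mrpl51 the largest differences were at the first base of Mrpl54 (9.31 and 42.0), in the coding sequence of Mrpl36 (13.8 and 61.6) and in that of Mrpl50 (11.0 and 46.2), all 3 higher in mouse 2. Before the constant of each table, the ratio at the leading Mrpl12 site was 314 in mouse 1, a whole number, and 49.9 in mouse 2. Whole numbers made up 54.3% of these ratios in mouse 1 and 53.6% in mouse 2 at the members' sites, and 64.6% and 63.9% over all genes. Read numbers are not given, so no error of a single fold could be formed. How far read numbers or the abundance of a transcript move these folds, and the order of the leading sites, was not tested. Whether a whole ratio marks a site with few input read starts was not tested either.

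Other genes of mitochondrial gene expression were set beside the members. Of 6 symbols of ribosomal proteins with other names 4 had called sites (Gadd45gip1, Chchd1, Dap3 and Aurkaip1; Ict1 is listed as Mrpl58), all 4 with a shared enriched site. The leading sites of Gadd45gip1 (25.6 and 25.5), Dap3 (16.05 and 14.1) and Aurkaip1 (15.04 and 10.1) lay in the 5' UTR, and 6 of the 10 sites of this list did. Of the translation factors 11 of 12 genes called in both mice carried a shared enriched site, led by the initiation factor Mtif3 in the 3' UTR (57.2 and 58.7) and the elongation factor Gfm1 in coding sequence (48.1 and 23.1). Assembly and rRNA modification factors did so in 12 of 19, led by Rpusd4 (54.2 and 48.1) and Rbfa (72.2 and 35.6), both in the 3' UTR. Aminoacyl-tRNA synthetases and related enzymes of mitochondria did so in 10 of 11, led by Fars2 (73.2 and 77.0) and Lars2 (46.1 and 32.7). Of the genes for transcription and upkeep of mitochondrial DNA, 4 of 5 did, led by the polymerase gene Polg (63.7 and 60.2) and Tefm (54.2 and 64.5). In these last 4 lists the 5' UTR held 2 of 27, 6 of 40, 1 of 19 and 1 of 15 shared enriched sites. Over all genes called in both mice 86.9% carried a shared enriched site, and 13.9% of the shared enriched sites lay in 5' UTRs. No difference among the lists, or from all genes, was tested.

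As a check of the labelled cell type, all 10 macrophage markers had a called site in both mice and 9 a shared enriched one, led by Spi1 (155 and 161) and Cd14 (147 and 123), while Itgam had none. No site was called for any of 8 lymphocyte markers. Of 7 neutrophil markers 5 had shared enriched sites (Ngp, S100a9, Camp, S100a8 and Ltf), all in 5' UTRs, and of 7 stromal and endothelial markers 1 did (Kdr, 44.1 and 52.0). A called site gives no level of expression, and the part of other cells in the members' values was not tested.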

How the data were processed

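The authors deposited 1 table per mouse (45668 and 47747 rows), with 1 called base per row, its gene and its annotated position. Per the file headers, the authors gave each row a score, above 10 throughout, and a fold, the ratio of IP to input read starts within that mouse. Folds divided by a constant of the table (1.003 in mouse 1, 0.963 in mouse 2) were whole numbers within 1e-06 in 62.1% and 62.0% of rows. Tools named in the submitters' processing notes are cutadapt 2.7, STAR 2.6.0c and UMI-tools 0.5.1, beside the builds mm10 and hg38. Not given in the sources used here are the site caller, its score's definition and the annotation. Depth per library is unknown.

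Members and lists were chosen with earlier results of these data known. Rows with 1 gene name were kept. Sites in both tables carry the annotation of mouse 1, which differed from that of mouse 2 at 5 member sites. Kinases, assembly factors and pseudogenes with similar symbols were left out of the compared groups by name. Distances and sequences came from RefSeq GRCm38.p6, which shares coordinates with mm10: 268 of 287 member sites (93.4%) lay inside the RefSeq gene, all 66 symbols matched and 57 had a sequence around the start. Without a genome, sequence around other sites was not analysed here. Promoter motifs of NRF1 and YY1 were searched as well and are not reported here.

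No test was run, with 2 mice and 1 IP library each, and no p-value is given. Shares carry exact (Clopper-Pearson) 95% intervals. The named-gene rule took the 10 members of highest mean log2 fold at their strongest shared site, the 5 with most shared sites, up to 10 by score outside the 5' UTR, those without a shared enriched site or called in 1 mouse, the 5 largest differences between mice and the 2 highest genes of each list. Further members, and those whose sequence is shown, were chosen after their values were seen. The matching of sites was checked on 2 random draws of 80% each from the 45668 sites of mouse 1. Of the first draw 79.7% were found in the second, near the 80% set by the drawing. This checks the matching alone and says nothing of the overlap between the mice. Alternatives covered the limits of fold and score, the overlap rule, each mouse alone and 1 site per gene. Python 3.11.15, pandas 2.3.3, NumPy 2.4.6, SciPy 1.17.1 and Matplotlib 3.10.9 were used.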

Additional observations from a re-analysis of the deposited data

How the results depend on the processing

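The counts and shares of the members stayed within 1.5 times the reported count or within the reported interval under every alternative except those given here. At a fold of at least 16 the members' shared enriched sites numbered 90 and those with 5' UTR sites alone 7, and with 1 site per gene, the strongest, the sites numbered 57. The median log2 fold of the shared enriched sites, 4.45 as the mean of both mice's medians, was 4.26 at a fold of at least 4, 4.93 at 16, 4.58 with a score of at least 20 and 4.99 with the strongest site of each gene; it follows the limit by construction. Within 30 and 50 bases of the start in place of 10, the share of 5' UTR sites near it was 68.4% and 86.8%. Each mouse taken alone gave 61 to 63 members with an enriched site, 188 to 192 sites, a median log2 fold of 4.19 to 4.37, a 5' UTR share of 24.5% to 30.7%, a share near the start of 33.9% to 41.3% and 13 to 15 members with 5' UTR sites alone. The limit of 8 set before the constant of each table gave 153 sites, because a ratio of 8 is a fold of 7.70 in mouse 2. The alternatives for members with 5' UTR sites alone, and the share with C before the A at any fold (52.7%), were chosen after seeing the data. No paired analysis was possible because the tables give only the ratio of IP to input within each mouse, with no value of a single library, and the results come from no test. Depth is unknown, so sites near the limit cannot be told from sites past it.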
